A study of Mus musculus with 36 samples.

Results

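The lungs of control mice collected at day 28 were compared with those collected at day 1, to see what separates the 2 control groups when no particles were given. The arrays were chosen by their labels alone: dose 0 µg, at either day. They were 9 of the 36 arrays and 7 of the 29 mice of the series, with 4 arrays of 3 mice at day 28 and 5 arrays of 4 mice at day 1. Every mouse was a female C57BL/6, 5 to 7 weeks old at the start, kept on a 12 hour light and dark cycle, and given one intratracheal instillation of a 40 µl suspension. Control mice received 0 µg of titanium dioxide tube nanoparticles, and the other mice 18, 54 or 162 µg. Lungs were taken 24 hours or 28 days later, so the day 28 mice were also the older ones, and age, time since the instillation and day of collection cannot be told apart. The labels give no hour of collection. One mouse of each control group was hybridised on 2 arrays, which were averaged. The labels speak of 5 samples per group for the RNA, taken from random sections of the tissue.

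The lung carries gas exchange across flat alveolar type I cells and a dense capillary endothelium, while alveolar type II cells make surfactant and club and ciliated cells line the airways. Like most tissues it also runs a circadian clock. In that loop the activators Arntl and Clock drive genes of the period, cryptochrome and Rev-erb (Nr1d1, Nr1d2) families, whose proteins shut the activators down in turn, and outputs such as Dbp, Tef and Hlf pass the rhythm on. A lung dissected with its airways can also carry tissue of the neck and chest, and skeletal muscle, squamous epithelium, heart muscle and fat each have transcripts that lung parenchyma nearly lacks.

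Each array set Cy5-labelled lung RNA against a Cy3-labelled reference RNA pooled from 11 mouse cell lines, and a level below is log2(Cy5/Cy3), high where lung RNA holds more of a transcript than the reference. A difference is day 28 minus day 1 on that log2 scale. Over the 36 arrays 48.5% to 62.1% of probes were well above background in Cy5. Markers of lung cells were present in all 7 control mice: the surfactant gene Sftpc was at 8.17, 8.24 and 8.26 at day 28, against 8.27, 7.83, 7.78 and 8.45 at day 1.

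The 5 day 1 arrays were not alike. The skeletal muscle genes had a mean log2 Cy5 intensity of 7.51 to 8.03 on the 4 day 28 arrays, against 13.86, 12.69, 11.76, 10.89 and 7.86 on the day 1 arrays. Day 1 values of 10.89 and above came from all 4 day 1 mice and no day 28 mouse, and arrays with a mean above 9 are called muscle arrays here. Squamous epithelium genes were at 6.82 to 7.19 on the day 28 arrays, against 11.90 and 11.80 on 2 day 1 arrays and 6.79 to 7.18 on the other 3. The plot of muscle and squamous intensity by array shows that 1 day 1 array was high in neither, 2 in muscle alone and 2 in both. That 1 array was the first of day 1 mouse 1, whose second array had the highest muscle level of the 9. Across genes its 2 arrays correlated at r = 0.818, against 0.967 for the day 28 mouse with 2 arrays. Ranked by correlation among the arrays of the series, the second came 31st for the first, and the first 29th for the second. For the day 28 mouse the ranks were 6 and 4, and for day 28 mouse 1 at 54 µg 34 and 8. That both arrays are of day 1 mouse 1 rests on their label. The main results on muscle and clock genes are therefore also given with each array of day 1 mouse 1 alone.

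**Figure D1:**
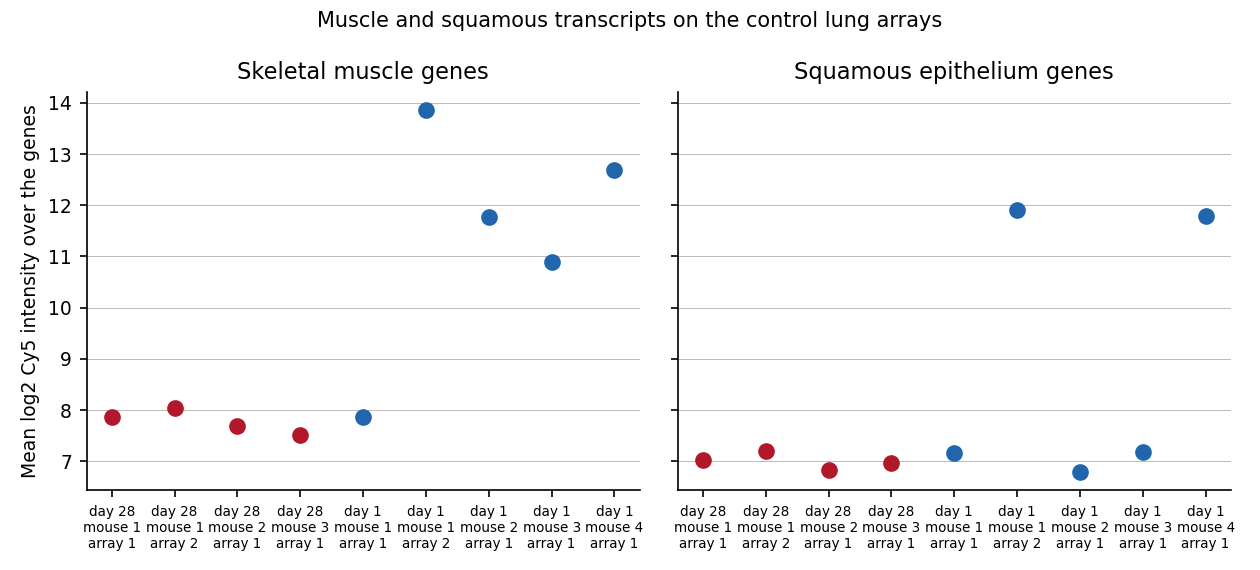
Mean log2 Cy5 intensity over 25 skeletal muscle genes (left) and over the squamous epithelium genes (right) on each control array, 1 point per array, day 28 in red and day 1 in blue. All day 28 arrays lie at 8.03 or below for muscle, while 4 of the 5 day 1 arrays lie at 10.89 or above.

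No gene passed the test between the control groups. In limma's moderated test over 23244 genes, 0 genes (0%) had a Benjamini-Hochberg adjusted p under 0.05, and the lowest adjusted p was 0.0539. At an unadjusted p under 0.05 there were 1159 genes (4.99%), of which 709 (3.05%) were higher at day 28 and 450 (1.94%) lower. These counts, and the shares of all genes set beside the lists below, depend on the fit. With the control groups fitted alone there were 1193 higher and 1187 lower. Array quality weights gave 2185 and 1834, and leaving out day 28 mouse 3 gave 275 and 152. All 3 day 28 mice lay above all 4 day 1 mice in 1509 genes (6.49%) and below them in 1382 genes (5.95%). The median half-width of the unadjusted 95% interval of a gene's difference was 0.32, so differences smaller than this were mostly not detectable with these mice. Much larger ones could also go uncalled after adjustment over all genes, as Dbp did at -1.72. The intervals and the SEs below rest on the spread within all groups of dose and day, not on the control mice alone. An SE can therefore be larger or smaller than the control values beside it would give. Large differences ran almost all one way. Of 525 genes with a difference of at least 1 in size, 523 were lower at day 28, and 2 were higher. Over all genes the median difference was 0.02. The plot of all genes shows the long left arm of muscle genes at moderate p and the clock gene Dbp alone at the top.

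**Figure D2:**
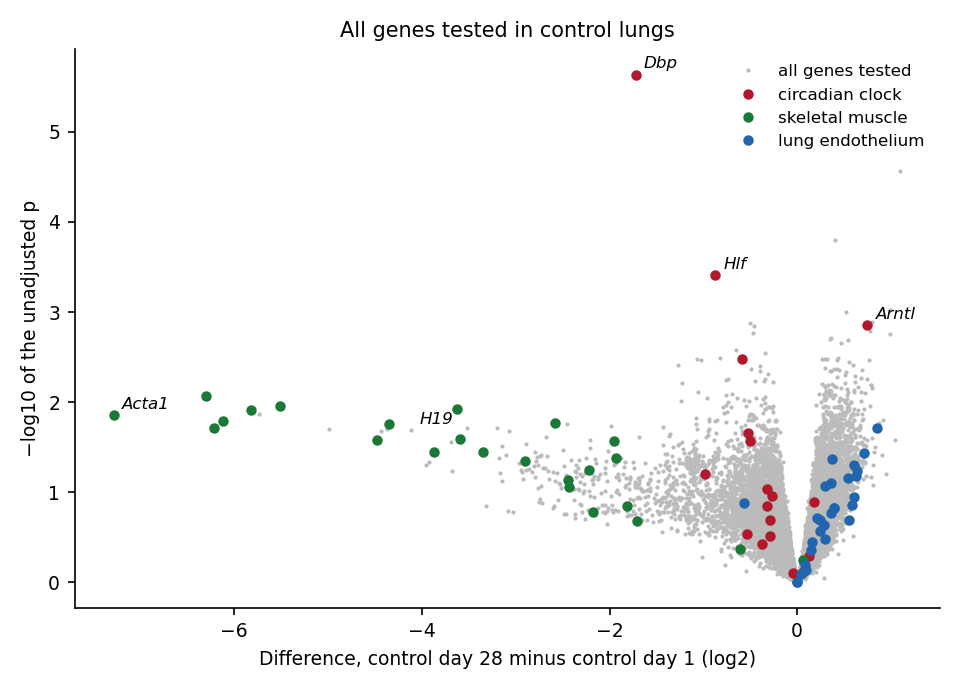
Difference between control lungs at day 28 and day 1 (log2, x axis) against −log10 of the unadjusted p (y axis), 1 point per gene for 23244 genes. Skeletal muscle genes (green) reach a difference of -7.28 for Acta1 at modest p, lung endothelium genes (blue) lie slightly right of 0, and Dbp has the lowest p at a difference of -1.72.

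The largest differences belonged to skeletal muscle. Acta1, the actin of the skeletal muscle thin filament, was at -1.95, -2.08 and -2.40 in the day 28 mice, against 2.38, 6.26, 5.06 and 6.85 in the day 1 mice. The groups did not overlap, with a difference of -7.28 (SE 2.74, limma adjusted p = 0.778), and 2 of the 4 day 28 arrays had Acta1 above background. Day 1 mouse 1 had -2.50 on its first array and 7.27 on its second, and the difference was -6.06 with the first alone and -8.50 with the second. Ckm, the creatine kinase of muscle, was at 0.41, 0.82 and 0.14 at day 28, against 3.24, 5.45, 4.27 and 6.26 at day 1 (difference -4.35, SE 1.71, limma adjusted p = 0.778). Of 24 skeletal muscle genes tested of 25 listed, 0 were called, 16 had an unadjusted p under 0.05 with a lower level at day 28, against 1.94% of all genes, and in 21 every day 28 mouse lay below every day 1 mouse, against 5.95%. Their median difference was -3.12. The fast myosin heavy chain gene Myh1 was not well above background on any day 28 array. It was at -0.06, -0.06 and -0.17 there, against 3.58, 6.74, 5.27 and 7.33 at day 1, and its measured difference of -5.83 (limma adjusted p = 0.778) rests on background signal at day 28. H19, an imprinted non-coding RNA that muscle also makes, went with these genes: it was at -2.46, -2.93 and -3.40 at day 28, against 0.39, 1.47, 0.06 and 2.79 at day 1, without overlap (difference -4.11, SE 1.65, limma adjusted p = 0.778).

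The muscle and squamous covariates were the mean levels of the listed muscle and squamous genes in each mouse. With them in the fit, the median of the muscle genes was 0.05, and Acta1 differed by -0.65 and H19 by -0.10. A small muscle median follows from a covariate made of the same genes. Without the 12 muscle arrays of the series the median was 0.13, with Acta1 at 0.36, H19 at -0.41 and 1 day 1 array left. Those arrays were chosen by these same muscle genes, so a small median follows there too. On the slide where that array and a day 28 array lay together, the muscle median was 0.08, while on the other 3 slides with both groups it was -2.27, -4.70 and -4.77. The slide at -4.77 held the other arrays of the same mice as the slide at 0.08.

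Genes of other neighbouring tissues were also lower at day 28 with all mice, without a call. Krt13, a keratin of squamous mucosa, was at -1.79, -1.54 and -1.89 at day 28, against 2.26, -1.58, -1.85 and 6.53 at day 1, so the groups overlapped and day 1 mice 1 and 4 stood high (difference -3.08, SE 2.13, limma adjusted p = 0.778). Krt5, the keratin of basal cells of squamous and airway epithelium, differed by -1.78 (SE 0.94) with overlap. The 18 squamous genes tested all had a negative difference, with a median of -1.93. That median was -0.95 without day 1 mouse 4, 0.07 with the covariates and 0.01 without the muscle arrays. The squamous covariate was the mean of these same genes, so a small median follows from it. In 14 adipocyte genes the median was -2.29, and it was -0.06 with the covariates and 0.85 without the muscle arrays. In 15 cardiac muscle genes it was -1.38, against -0.46 with the covariates, 0.42 without the muscle arrays and -0.51 without day 28 mouse 3. In 8 genes of cartilage and tracheal gland it was -0.36, against -0.07 with the covariates and 0.86 without the muscle arrays. Without day 28 mouse 3 this last median was -0.10, and without day 1 mouse 4 -0.20. None of the genes of these lists was called. Heart muscle behaved less evenly. Myh6, the atrial and adult ventricular myosin of the mouse heart, was at 5.95, 6.32 and 2.68 at day 28, against 5.88, 6.03, 6.57 and 6.97 at day 1. Day 28 mouse 3 alone lay low, and the difference was -1.38 (SE 0.96, limma adjusted p = 0.778). A second Myh6 probe, above background on 7 of the 9 control arrays, differed by -0.40. Nppa, the atrial natriuretic peptide, likewise stood lowest in that mouse, at 2.82, 2.26 and 0.08, against 2.28, 2.47, 4.84 and 4.93 at day 1.

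Genes of energy metabolism shared the direction of muscle. Nuclear genes of the mitochondrial respiratory chain were lower at day 28 in 30 of 30 cases, with all day 28 mice below all day 1 mice in 22, against 5.95% of all genes, and a median of -0.57. The 3 largest differences were those of Cox7a1, Cox8b and Cox6a2, subunits of cytochrome c oxidase made in heart and skeletal muscle, at -2.89, -2.67 and -2.29. The widely expressed subunit Cox4i1 was at 0.10, 0.03 and -0.08 at day 28, against 0.28, 0.61, 0.18 and 0.33 at day 1, a difference of -0.33 without overlap (SE 0.38, limma adjusted p = 0.818). With the muscle and squamous covariates the median of this list was 0.33, of the other sign. Glycolysis genes had a median of -0.58, led by the muscle phosphoglycerate mutase Pgam2 at -3.96, and 0.11 with the covariates. Fatty acid synthesis genes had a median of -0.77, led by the triglyceride-forming acyltransferase Dgat2 at -3.20, and -0.17 with the covariates. Without the muscle arrays the medians were 0.07 for the respiratory chain, -0.02 for glycolysis and 0.17 for fatty acid synthesis. The part of muscle and fat tissue in these lists was not tested beyond these values.

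Marker lists of several lung cell types had medians above 0, and those of club and goblet cells did not. Lung endothelium genes were higher at day 28 in 26 of 28, and in 10 every day 28 mouse lay above every day 1 mouse, against 6.49% of all genes. Their median per mouse was 3.91, 3.87 and 4.18 at day 28, against 3.56, 3.25, 3.47 and 3.60 at day 1, and the median difference was 0.33. Pecam1, an adhesion molecule between endothelial cells, was at 2.52, 3.00 and 3.04 at day 28, against 2.29, 1.63, 2.37 and 2.58 at day 1 (difference 0.64, SE 0.32, limma adjusted p = 0.778). Its groups overlapped in 1 day 1 mouse. Alveolar type I genes were higher in 18 of 18 with a median of 0.37, and the type I receptor Ager differed by 0.23 (SE 0.20). Alveolar type II genes had a median of 0.16, with Sftpc at 0.14 (SE 0.27). Ciliated cell genes had a median of 0.23, with their master regulator Foxj1 at 0.34 (SE 0.31), and the 21 club cell genes a median of -0.01, with the secretoglobin Scgb1a1 at 0.08 (SE 0.25). The 11 goblet cell genes had a median of -0.036. In bulk lung RNA fewer cells of a type and less RNA per cell cannot be told apart.

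The medians of endothelial and alveolar markers were smaller in size with the covariates and without the muscle arrays. Every day 1 mouse and no day 28 mouse had a muscle array, so muscle level and day cannot be told apart in the controls. A cause of these shifts was not tested. With the muscle and squamous covariates the median was 0.00 for endothelium, -0.02 for alveolar type I and -0.01 for alveolar type II. Without the muscle arrays, which left only the first array of day 1 mouse 1 on the day 1 side, it was 0.12, -0.14 and 0.06. The ciliated list did not follow them, with 0.17 under the covariates and 0.75 without the muscle arrays. Over the 48 gene lists, 43 medians lay within 0.2 of 0 with the covariates and 38 without the muscle arrays, against 28 with all mice and no covariates, as the plot of gene groups shows. The 48 lists include the muscle and squamous lists that make up the covariates.

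**Figure D3:**
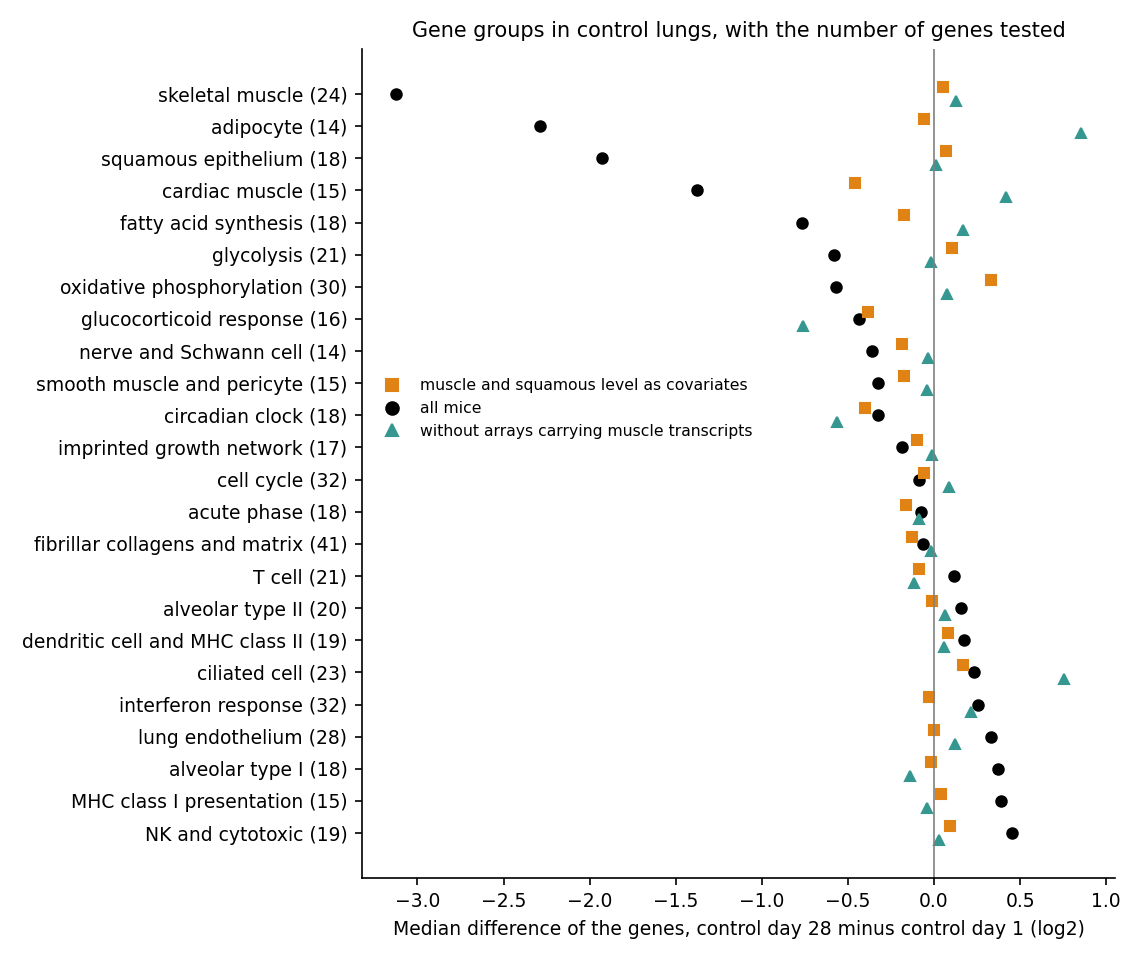
Median difference between control lungs at day 28 and day 1 (log2) for 24 gene groups, with all mice (black), with muscle and squamous levels as covariates (orange) and without the muscle arrays (green). Muscle stands at -3.12 with all mice and at 0.05 with the covariates, which were built from the muscle and squamous genes themselves. NK and cytotoxic genes stand at 0.45 and 0.09, while the circadian clock stands at -0.33, -0.40 and -0.56.

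The circadian clock genes kept their median below 0 in each of these settings, at -0.33, -0.40 with the covariates and -0.56 without the muscle arrays. The groups overlapped on that measure: the median of the circadian clock list in each mouse was 0.21, 0.42 and 0.48 at day 28, against 0.95, 0.16, 0.82 and 0.60 at day 1, so day 1 mouse 2 lay below all day 28 mice. Dbp, a transcription factor of the PAR bZIP family whose own level swings widely over the day, came closest to a call. Dbp was at 0.16, -0.66 and 0.05 in the day 28 mice, against 1.92, 1.84, 1.83 and 0.69 in the day 1 mice. The groups did not overlap, and the difference of -1.72 (SE 0.28, 95% interval -2.30 to -1.15) had a limma adjusted p of 0.0539, just short of the threshold and the lowest of all genes. A second Dbp probe differed by -1.74. Hlf, another PAR bZIP factor, was at 0.72, 0.74 and 0.52, against 1.79, 1.81, 1.20 and 1.34 at day 1, also without overlap (difference -0.88, SE 0.21, limma adjusted p = 0.778). The third member of that family, Tef, differed by -0.52 (SE 0.21) with overlap. Nr1d1, the repressor Rev-erb alpha, was at 1.31, 0.79 and 0.93, against 1.85, 1.39, 1.68 and 1.46 at day 1, without overlap (difference -0.59, SE 0.18, limma adjusted p = 0.778).

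Arntl, the activator that works opposite to these genes, was the one clock gene higher at day 28 with an unadjusted p under 0.05. It was at 0.66, 0.68 and 0.61 at day 28, against -0.60, -0.19, -0.26 and 0.64 at day 1 (difference 0.75, SE 0.21, limma adjusted p = 0.778). The day 28 mice lay close together, and day 1 mouse 4 lay among them. Per2, a period gene, was at -0.30, -0.42 and 0.06, against 0.54, -0.36, 0.50 and -0.40 at day 1, and the groups overlapped (difference -0.29, SE 0.22). Of 18 clock genes tested of 20 listed, 0 were called. At an unadjusted p under 0.05, 5 were lower at day 28, against 1.94% of all genes, and 1 was higher, against 3.05%. Usp2, a deubiquitinase with a clock-driven rhythm, had no overlap either (difference -0.98, SE 0.50), but differed by 0.17 with the covariates.

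**Figure D4:**
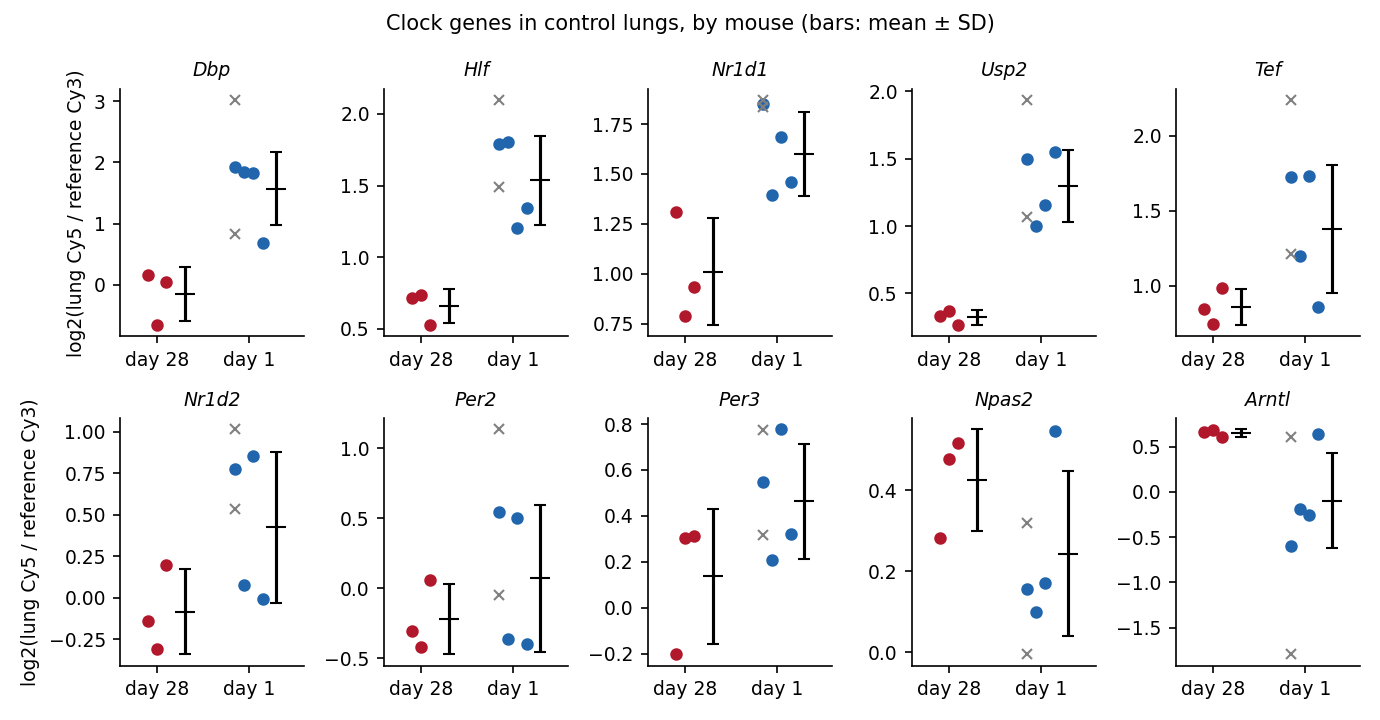
Levels of 10 clock genes as log2(Cy5/Cy3) in each control mouse, day 28 in red and day 1 in blue, with the group mean and SD beside them and grey crosses for the 2 single arrays of day 1 mouse 1. Dbp, Hlf, Nr1d1 and Usp2 show no overlap, and the crosses of Arntl lie at -1.80 and 0.60.

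The 2 arrays of day 1 mouse 1 disagreed on the clock as they did on muscle. Dbp was at 3.02 on the first and 0.83 on the second, and Arntl at -1.80 and 0.60. With the first array alone Dbp differed by -1.99 (limma adjusted p = 0.136) and with the second alone by -1.45 (limma adjusted p = 0.391), and Arntl by 1.05 and 0.45. The 2 arrays of day 28 mouse 1 had Dbp at 0.87 and -0.55 and Arntl at 0.53 and 0.79. Among the day 1 arrays, Dbp was at 3.02, 1.83, 1.84, 0.69 and 0.83 in the order of their muscle level from low to high. On the 4 slides with arrays of both days Dbp differed by -2.15, -2.49, -0.64 and -1.39, and Arntl by 2.33, 0.94, -0.04 and 0.19. The first and last of these slides held the same mice, mouse 1 of each day. With the slide as a block Dbp differed by -1.71 (limma adjusted p = 0.644). Without the muscle arrays the day 1 side was the first array of day 1 mouse 1 alone, which was assumed to vary like the other groups, so the fit sets that 1 array against the day 28 mice. It gave 12 of 23242 genes (0.0516%) with an adjusted p under 0.05, among them 4 clock genes, with differences of 2.45 for Arntl, -3.16 for Dbp, -1.44 for Hlf and -1.38 for Tef. In the 18 µg group, a day 1 mouse with a muscle level of 14.14 had Dbp at 2.92, close to the 3.31 and 2.76 of that group's other 2 mice. At 54 µg, day 28 mouse 1 had Dbp at 0.43 and 1.61 on arrays with muscle levels of 10.03 and 13.75. Whether the muscle RNA itself bears on the clock values was not tested beyond these values.

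Promoter windows of clock genes are shown because these genes were the nearest to a call. Of 20 listed clock genes 17 had an entry in the RefSeq promoter table (build GRCm38.p6), each 300 bases long, from 250 bases before to 50 after the start of the transcript. Elements of 3 kinds were searched for on both strands: the E-box CACGTG bound by Arntl and Clock, the D-box TTATGTAA or TTACGTAA bound by Dbp, Tef and Hlf, and the ROR element TAGGTCA or TGGGTCA bound by the Rev-erb and ROR receptors. Matches are in capitals. The E-box was in 5 of the 17 genes and in 7.15% of all 32851 promoter windows, the D-box in 1 and 1.06%, and the ROR element in 2 and 6.45%. A gene was counted if any of its windows held a match, and Arntl, Clock, Per1 and Tef had more than 1 window. The percentages are per window, so the gene counts and the percentages are not on the same footing. The motifs do not overlap one another in the windows shown. Dbp had none of these letters in its window (chr7:45704997-45705296, plus strand), Arntl had a ROR element after one of its 2 starts (chr7:113207261-113207560, plus strand), Tef an E-box (chr15:81802423-81802722, plus strand), and the period gene Per3 a pair of D-boxes (chr4:151044616-151044915, minus strand).
Dbp: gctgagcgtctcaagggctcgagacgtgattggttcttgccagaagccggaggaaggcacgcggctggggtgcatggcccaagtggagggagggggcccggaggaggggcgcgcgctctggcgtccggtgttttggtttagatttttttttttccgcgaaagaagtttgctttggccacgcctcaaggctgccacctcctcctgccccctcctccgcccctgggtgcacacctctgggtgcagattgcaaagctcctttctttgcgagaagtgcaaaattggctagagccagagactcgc
Arntl: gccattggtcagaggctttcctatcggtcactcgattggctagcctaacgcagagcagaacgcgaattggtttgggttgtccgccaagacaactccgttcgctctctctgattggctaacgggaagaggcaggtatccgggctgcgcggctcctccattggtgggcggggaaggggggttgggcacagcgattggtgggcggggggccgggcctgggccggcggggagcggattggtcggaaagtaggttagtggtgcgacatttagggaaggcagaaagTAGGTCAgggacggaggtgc
Tef: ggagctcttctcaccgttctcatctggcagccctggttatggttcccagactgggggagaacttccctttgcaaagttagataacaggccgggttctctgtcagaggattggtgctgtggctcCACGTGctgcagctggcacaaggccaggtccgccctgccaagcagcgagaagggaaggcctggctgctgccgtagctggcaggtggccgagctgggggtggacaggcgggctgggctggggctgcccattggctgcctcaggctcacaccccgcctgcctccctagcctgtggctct
Per3: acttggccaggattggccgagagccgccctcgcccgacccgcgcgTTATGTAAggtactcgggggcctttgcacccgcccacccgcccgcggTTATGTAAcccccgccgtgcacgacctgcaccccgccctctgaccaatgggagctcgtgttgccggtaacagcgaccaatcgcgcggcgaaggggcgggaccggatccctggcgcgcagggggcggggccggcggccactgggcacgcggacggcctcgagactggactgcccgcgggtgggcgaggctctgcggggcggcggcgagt
Of the genes with a ROR element, Arntl had a difference of 0.75 and Nfil3 one of 0.07. Of those with an E-box, Tef had a difference of -0.52, Per1 one of -0.54 and Bhlhe41 one of -0.04, while Cry1 and Ciart were too dim to be tested. Per3, with 2 D-boxes, had a difference of -0.33. A match describes letters in a window and not a bound site.

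The same days could be compared in mice that share no array with the controls. At 18 µg, the lowest dose, 10 genes (0.043%) were called between day 28 and day 1, 2 higher and 8 lower, and 7 of them were in the clock list. Dbp was at 0.09, 0.35, -0.17 and 0.36 at day 28, against 3.31, 2.76 and 2.92 at day 1, and fell by 2.83 (SE 0.28, limma adjusted p = 8.98e-06). Arntl was at 1.06, 0.64, 0.69 and 0.50, against -1.46, -1.26 and -1.02, and rose by 1.97 (SE 0.21, limma adjusted p = 1.57e-05). Neither gene's groups overlapped. Per2 fell by 1.50, Tef by 1.44, Hlf by 1.26, Nr1d2 by 1.22 and Nr1d1 by 1.16 (limma adjusted p = 0.00298 to 0.0185). The other 3 called genes were Spon2, a secreted matrix protein, Rasd2, a small GTPase, and Zfp346, a zinc finger protein.

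Of the 18 clock genes, 17 had the same sign at 18 µg as in controls, and 16 differed by more. The difference between these 2 differences, tested as an interaction in limma, called 0 of 23244 genes (0%), with 1557 (6.7%) at an unadjusted p under 0.05, among them 9 of the 18 clock genes. It was -1.11 for Dbp (SE 0.40, limma adjusted p = 0.691) and 1.22 for Arntl (SE 0.29, limma adjusted p = 0.691). Between the same days 4 genes (0.0172%) were called at 54 µg, where Dbp differed by -0.74 and Arntl by 0.81, and 418 genes (1.8%) at 162 µg, where they differed by 0.18 and 0.39. These values stand beside those of the controls without a test of the difference. The day 28 level of Dbp lay between -0.66 and 0.36 in controls and at 18 µg, as the plot by dose and day shows, and between 0.94 and 2.54 at 54 and 162 µg. Muscle arrays were on 1 of 4 day 28 mice and 1 of 3 day 1 mice at 18 µg.

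**Figure D5:**
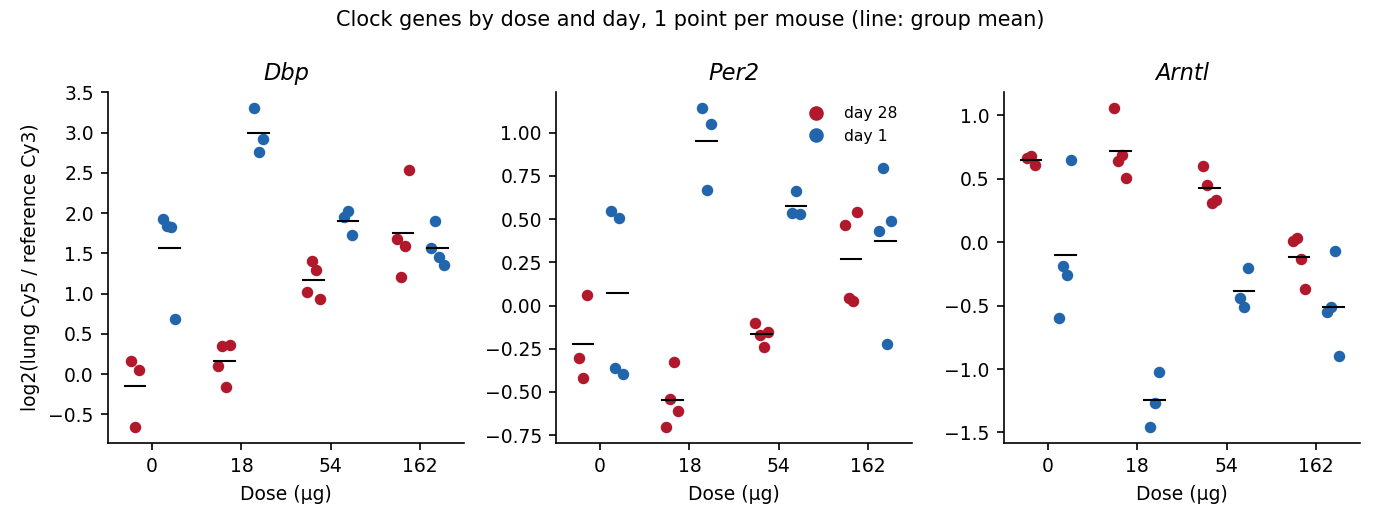
Levels of Dbp, Per2 and Arntl as log2(Cy5/Cy3) in all 29 mice by dose (0, 18, 54 and 162 µg), day 28 in red left of day 1 in blue, 1 point per mouse with a line at the group mean. The gap between days is widest at 18 µg, where Dbp lies between -0.17 and 0.36 at day 28 and between 2.76 and 3.31 at day 1.

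Genes driven by glucocorticoids, hormones that also follow the time of day, had a median of -0.44, with 12 of 16 lower at day 28 and 3 of them without overlap, against 5.95% of all genes. The median of the glucocorticoid response list in each mouse was 0.28, 0.23 and 0.72 at day 28, against 1.24, 0.14, 0.88 and 0.12 at day 1. The groups overlapped, with day 1 mice 2 and 4 below every day 28 mouse, and without day 1 mouse 1 the median difference was -0.23. Fkbp5, a chaperone that glucocorticoids induce, was at -1.51, -1.75 and -1.69 at day 28, against -1.01, -1.21, -1.23 and -1.42 at day 1, without overlap (difference -0.43, SE 0.25, limma adjusted p = 0.778). The metallothionein Mt2 was lower by 1.37 and Pdk4, a kinase that restrains pyruvate use, by 2.21, neither with a call. Under the covariates Pdk4 had a difference of 0.63, of the other sign. The list median was -0.39 with the covariates and -0.76 without the muscle arrays. Immediate early genes had a median of 0.10: Fos differed by 0.48 (SE 0.41) and Egr1 by 0.15 (SE 0.38), each with overlap.

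Growth and matrix genes were looked at because the mice aged between the groups. Cell cycle genes had a median of -0.09 over 32, with 0 called and 0 at an unadjusted p under 0.05. The proliferation marker Mki67 was at -3.54, -3.71 and -3.73 at day 28, against -3.61, -3.62, -3.89 and -2.99 at day 1, with overlap (difference -0.13, SE 0.26). Top2a, the topoisomerase of dividing cells, differed by -0.29 (SE 0.19). Of 17 imprinted growth genes 12 were lower at day 28, with a median of -0.18. Igf2, the fetal growth factor beside H19, was at -0.34, -0.54 and -0.43, against 0.03, -0.43, -0.32 and -0.27 at day 1, and differed by -0.19 (SE 0.14). Igfbp3, which carries insulin-like growth factors in blood, differed by 0.36 (SE 0.22).

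Matrix genes did not move one way: of 41, 18 were higher and 23 lower, with a median of -0.06. Col1a1, a chain of type I collagen, was at -1.57, -1.97 and -1.93 at day 28, against -1.62, -0.88, -1.22 and -1.34 at day 1 (difference -0.56, SE 0.22, limma adjusted p = 0.778). Col3a1, the type III chain, differed by -0.41 (SE 0.19). Without the muscle arrays they differed by 0.05 and 0.36. Both overlapped through day 1 mouse 1, whose first array gave Col1a1 -1.87 and Col3a1 -0.40, lower than its second array at -1.36 and 0.35. Eln, the elastin of alveolar walls and vessels, was at 2.35, 2.84 and 2.95, against 2.13, 2.58, 2.79 and 2.49 (difference 0.22, SE 0.34). At an unadjusted p under 0.05, 7 matrix genes were lower, against 1.94% of all genes, and 1 was higher, against 3.05%. The proteoglycans Lum and Dcn of connective tissue had the largest differences, -2.20 and -1.49, without overlap, and -0.15 and 0.15 with the covariates.

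Immune genes split by type. NK and cytotoxic genes were higher at day 28 in 19 of 19, and in 10 all day 28 mice lay above all day 1 mice, against 6.49% of all genes. Their median was 0.45, the highest of the 48 lists. Gzma, a granzyme of killer cells, was at 5.83, 5.93 and 6.01 at day 28, against 5.22, 5.00, 5.64 and 4.54 at day 1 (difference 0.83, SE 0.36, limma adjusted p = 0.778). On the first array of day 1 mouse 1, not a muscle array, Gzma was at 5.87, between the day 28 mice. That array had 20 of 25 skeletal muscle genes above background, against 16 to 20 on the day 28 arrays. The part of muscle RNA in these values was not tested. The list median was 0.09 with the covariates and 0.03 without the muscle arrays. MHC class I presentation genes were higher in 14 of 15, with a median of 0.39 and 8 without overlap, against 6.49% of all genes. That median was 0.04 with the covariates and -0.04 without the muscle arrays. The class I heavy chain gene H2-K1 was at 2.74, 2.71 and 2.74, against 2.35, 2.56, 2.21 and 2.23, without overlap (difference 0.39, SE 0.21).

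Interferon response genes were higher in 30 of 32 with a median of 0.26. Irf7, a transcription factor of the interferon response, was at -1.15, -1.0 and -1.15 at day 28, against -1.38, -1.61, -1.35 and -1.42 at day 1, without overlap (difference 0.34, SE 0.32, limma adjusted p = 0.787). The list median was -0.03 with the covariates and 0.21 without the muscle arrays. T cell genes had a median of 0.11, with the receptor chain Cd3e at -0.02 (SE 0.16), and B and plasma cell genes one of -0.02. Cd79a, a chain of the B cell receptor complex, was at 1.65, 1.68 and 1.65 at day 28, against 1.92, 2.96, 1.1 and 1.43 at day 1, so the day 28 mice lay close together within the day 1 range. Genes of dendritic cells and MHC class II had a median of 0.17, with H2-Aa at 0.37 (SE 0.23).

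Inflammatory genes differed little as groups, with single exceptions. Saa3, a serum amyloid A gene that lung injury induces, was at -3.56, -3.55 and -3.71 at day 28, against -2.43, -0.92, -2.82 and -2.93 at day 1. The groups did not overlap, and day 1 mouse 2 stood highest (difference -1.33, SE 0.61, limma adjusted p = 0.778). The 18 acute phase genes did not follow it as a group: their median was -0.08, and Lcn2, which binds bacterial siderophores, differed by 0.14 (SE 0.32). Ccl2, which attracts monocytes, differed by -0.39 (SE 0.38) and the interferon-induced chemokine Cxcl10 by 0.05 (SE 0.37), both with overlap. Of 26 chemokine genes 13 were higher and 13 lower, with a median of 0.02. Ccl24, which attracts eosinophils, lay lowest of them, at -1.39 without overlap. Marco, a scavenger receptor of alveolar macrophages, was at 4.44, 5.05 and 4.89, against 4.91, 6.56, 5.38 and 5.15 at day 1 (difference -0.71, SE 0.33), and day 1 mouse 2 was again the highest. Over 20 alveolar macrophage genes the median was 0.08. Red blood cell genes had a median of -0.11, with the haemoglobin gene Hba-a1 at -0.10 (SE 0.28), and ribosomal protein genes one of 0.00.

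Among genes outside the lists, Rasl11a, a small GTPase of the Ras family, came closest to a call in the upward direction. It was at -0.28, 0.12 and 0.15 at day 28, against -1.50, -0.80, -1.07 and -1.05 at day 1, without overlap (difference 1.1, SE 0.21, limma adjusted p = 0.315). It differed by 1.19 to 1.22 within each of the 4 slides and by 0.87 with the covariates. Slides 1 and 5 held the same mice, mouse 1 of each day, so the 4 slides are not 4 separate pairs of mice. Spon2 was at 0.68, 0.50 and 0.46 at day 28, against -1.08, -0.65, -0.21 and 0.17 at day 1, also without overlap (difference 0.99, SE 0.28, limma adjusted p = 0.778), and it rose by 2.02 at 18 µg (limma adjusted p = 0.00144).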

How the data were processed

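Lung RNA of 29 mice was measured on 36 two-colour arrays, with lung RNA in Cy5 on all of them, so any dye bias of a probe acts on both control groups alike. Agilent Feature Extraction 11.0.1.1 read the spots, per the file headers, and the deposited files hold spot and background intensities of both dyes. The deposited log10 ratio of Cy5 over Cy3 came from the scanner software's background-subtracted, dye-normalized signals. The deposited value table holds log2 ratios in the same direction, whose array medians lay between -0.039 and -0.017, and how the authors centred it is not given in the sources used here. It correlated with the ratios used here at r = 0.986 to 0.997 across probes. No spot was saturated.

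All levels were computed in limma 3.58.1 (R 4.3.3) from each spot's median intensity: background correction by normexp with an offset of 50, loess within each array, and the mean over spots of a probe and over arrays of a mouse. The plan had named mean foreground intensities, and the median ones were used in their place. Of 55681 probes 28026 were named through RefSeq (GRCm38.p6, names only), the others kept the file's identifier, and for each of 36799 names the probe of highest mean intensity stood for the gene. Of the fixed genes and clock genes, 3 had other probes above background on all 9 control arrays, and none of these 4 probes differed in sign. A gene was tested if at least 3 mice of some group had it well above background on all their arrays, which held for 23244, 15188 of them with a symbol. The precision is limited by the number of arrays and mice.

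All 29 mice entered 1 limma fit with 8 group means (21 residual and 2.9 prior degrees of freedom). The SE of a gene thus pools the spread within all 8 groups, treated mice included. Tests were two-sided. Calls required a p under 0.05 after Benjamini-Hochberg adjustment over all genes tested. The fit was checked on simulated data with independent noise and, for each gene, the same spread in every group. Those data held no muscle arrays, so the check does not bear on their effect. One mouse at 162 µg, with 2 arrays, has a title of day 1 and a time label of day 28, and was kept at day 28. The arrays lay on 5 slides, 4 of which held both control groups. Slides 1 and 5 held the same control mice, mouse 1 of each day.

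The comparison, the 48 gene lists and 36 single genes followed throughout were chosen with earlier results of these data known. Every other gene named was chosen after its values were seen, as were the 2 alternatives with 1 array of day 1 mouse 1. Further alternatives changed the normalization, the filter on dim probes, the slide block, the arrays with muscle transcripts and the mice left out. Background roles of genes are textbook knowledge.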

Additional observations from a re-analysis of the deposited data

Results flagged for a closer look

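In the 84 groups of 4 control day 1 values that were examined, 3 held 1 mouse whose gap to the nearest other was a larger share of the whole range than Dixon's 95% limit for 4 values allows. Chance alone sets about 1 in 20 such groups apart. For Dbp the gap was 0.925 of the range: day 1 mouse 4 was at 0.69 and the other 3 at 1.83 to 1.92. The 1.92 is the mean of the arrays of day 1 mouse 1, at 3.02 and 0.83. The second of these lies near mouse 4, so the closeness of the other 3 rests partly on averaging. For the median of the heat shock and unfolded protein list it was 0.934, with day 1 mouse 3 at -0.35 and the others between -0.79 and -0.76. For the median of the steroid hormone response list it was 0.867, with day 1 mouse 2 at -0.04 and the others between 0.25 and 0.29.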

How the results depend on the processing

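No paired analysis was possible because the replicate numbers were given in accession order and no label pairs a day 28 mouse with a day 1 mouse. The slide, which did bring both days together, was used as a block instead and left the counts at 0 in controls, 10 at 18 µg and 0 for the interaction. The count of 0 called genes between control groups became 1 with only genes above background on all arrays, 12 without the muscle arrays, where 1 day 1 array was left and was assumed to vary like the other groups, and 3 with array quality weights, and it was 0 to 1 when any 1 mouse was left out. The 1 gene was Dbp in both cases, without day 1 mouse 4 at an adjusted p of 0.000913, and the 3 were Dbp, Hlf and Rasl11a. Over the single-mouse omissions Dbp differed by -2.02 to -1.47. At 18 µg the count of 10 was 2 with median centring, Dbp and Arntl. It was 3 in a fit of the 2 groups alone and 3 without the group's day 1 mouse 1, each time Dbp, Arntl and Spon2. Per2, Tef, Hlf, Nr1d2 and Nr1d1 were thus not called in any of these fits. Over all omissions of 1 mouse the count was 3 to 12. The interaction count of 0 stayed 0 with 1 mouse left out and became 3 without the muscle arrays, on that same single day 1 array: 1 unnamed probe and 2 array features on chromosomes 1 and 5. Median centring moved the median of all genes to 0.14, against 0.02, so directions of small differences depend on it, and the deposited value table gave 934 higher and 354 lower genes at an unadjusted p under 0.05, against 709 and 450. Of the 48 list medians, 18 changed sign with the covariates and 22 without the muscle arrays. Signs turned without the muscle arrays for Acta1 (0.36), Ckm (0.40), Krt5 (0.18), Krt13 (0.21), Nppa (1.49), Col1a1 (0.052), Col3a1 (0.36), Mki67 (0.50), Top2a (0.26), Lcn2 (-0.35), Sftpc (-0.26) and Marco (0.0084). With the covariates they turned for Krt13 (0.39), Eln (-0.094), Mki67 (0.067) and Cxcl10 (-0.30), with median centring for Mki67 (0.070), Cd3e (0.19) and Hba-a1 (0.11), and with the deposited table for Cd3e (0.020) and Hba-a1 (0.013). They also turned with quality weights for Cd3e (0.012) and Sftpc (-0.0093), with the scanner's processed signals for Ager (-0.030), with the first array of day 1 mouse 1 alone for Mki67 (0.0030) and with its second alone for Cd3e (0.013). Leaving out 1 mouse gave -0.25 to 0.047 for Mki67, -0.048 to 0.43 for Egr1, -0.033 to 0.20 for Cxcl10, -0.44 to 0.18 for Cd79a, -0.11 to 0.091 for Cd3e, -0.042 to 0.18 for Scgb1a1 and -0.25 to 0.032 for Hba-a1. The cause of these turns was not tested. Signal over background limits low genes: 193 tested genes were on no day 28 array well above background and 22 on no day 1 array.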

Other observations

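Nerve and Schwann cell genes were lower in 11 of 14, with a median of -0.36, and 6 had an unadjusted p under 0.05 against 1.94% of all genes. Among them were Sox10, a factor of Schwann cells, at -0.46, and Ncam1, an adhesion molecule of nerve and muscle, at -0.41. Smooth muscle and pericyte genes had a median of -0.33: Des, the desmin of muscle filaments, differed by -2.01 and the smooth muscle actin Acta2 by -0.75. With the muscle and squamous covariates the medians were -0.18 for both lists, and without the muscle arrays -0.032 for nerve and -0.040 for smooth muscle. The part of muscle tissue in them was not tested beyond this.

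Over 25 fibroblast genes, 17 were higher and 8 lower, with a median of 0.15 that was -0.028 with the covariates and 0.026 without the muscle arrays. Tcf21, a transcription factor of lung mesenchyme, differed by 0.68 and the adhesion molecule Vcam1 by 0.60, both without overlap, while Pi16, a gene of adventitial fibroblasts, differed by -1.16. The mast cell protease Mcpt4 differed by -1.40 without overlap, and Cpa3, a carboxypeptidase of the same cells, by -0.66.

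At 18 µg the cardiac muscle genes had a median difference of 2.39 between day 28 and day 1, against -1.38 in controls. This difference was not tested as a list.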
